A study of Mus musculus with 6 samples.

Results

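The nuclear genes of oxidative phosphorylation were followed in bone marrow-derived macrophages (BMDMs) after direct contact with neutrophils from the injured spinal cord. Members were the protein-coding genes whose symbols begin with Nduf, Uqcr, Sdh, Cox4, Cox5, Cox6, Cox7, Cox8 or Atp5, and whose mean over the 6 libraries reached 0.5 FPKM (fragments per transcript length and per total of fragments in the library). Of 98 protein-coding genes with such names, 92 met this limit, among 13367 genes of the series that did and 55335 in the table. By complex, 36 members belong to complex I, 4 to complex II, 8 to complex III, 15 to complex IV (*Ndufa4* and *Ndufa4l2* included), 17 to complex V and 12 are assembly factors of complexes I and II.

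BMDMs were grown from bone marrow of *Cd177* WT mice for 7 days in medium with 25 ng/ml M-CSF, and kept for 24 h with neutrophils. The neutrophils had been taken by magnetic isolation from the lesion at 3 days post injury (dpi), either from *Cd177* WT mice (WT N, 3 libraries) or from *Cd177* KO mice (KO N, 3 libraries; Cd177-/- animals from a commercial supplier). Male mice of 8 weeks were used for injury, and the macrophages were WT in both groups, so by design the genotype differed in the neutrophils only. The Ly6G-negative cells were sorted before RNA extraction. The labels do not say that replicates came from separate animals or cultures, so p-values measure the spread between these libraries, which may be technical.

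In the inner mitochondrial membrane, complexes I and II pass electrons from NADH and succinate to ubiquinone, complex III passes them on to cytochrome c and complex IV to oxygen, and complex V makes ATP from the proton gradient. Most subunits are encoded in the nucleus, and a small set in the mitochondrial genome. In macrophages, inflammatory activation is known to lower respiration, while alternative activation relies on it.

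The table holds FPKM without counts, so the depth is known only relatively, from values shared by low genes, as 0.927 to 1.07 times that of WT N replicate 1. Macrophage markers were high in every library, with a summed level of 6825 to 8181 FPKM in WT N and 7415 to 8119 FPKM in KO N, and 2 of 10 rose and 2, *Cd14* and *Fcgr1*, fell, by 3.33 and 1.83 on the log2 scale. Neutrophil markers summed to 202 to 262 FPKM in WT N and 557 to 572 FPKM in KO N, 10 of 12 tested were higher in KO N and 1 was lower, and *Ly6g*, the surface marker used for the sort, was at 0 in WT N and at 0.403 to 0.660 FPKM in KO N. B cell markers summed to 1.41 to 2.28 FPKM in WT N and 14.7 to 16.9 FPKM in KO N, with 3 of 3 tested higher and the defining *Cd79a*, *Ms4a1* and *Pax5* at or below 0.0519 FPKM, and 5 of 6 proliferation markers were higher (85.1 to 111 FPKM in sum in WT N, 130 to 163 FPKM in KO N). Beside these marker counts, 27.1% of all tested genes were higher in KO N and 10.5% lower, at an adjusted p under 0.05 with limma. In bulk RNA, more cells of a type and more RNA per cell cannot be told apart, and the part of these cells' RNA in the results was not tested. *Cd177* itself, a gene of neutrophils, read 0.544, 0.309 and 0.521 FPKM in the libraries labelled WT N and 1.79, 1.84 and 2.28 FPKM in those labelled KO N (log2 fold change 1.37, SE 0.16, adjusted p = 0.000827 with limma), which goes against the labels. The groups are therefore named as labelled throughout, and every direction given here rests on those labels.

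One library bore on nearly every member. WT N replicate 3 was the highest of the 3 WT N libraries in 86 of 92 members (93.5%), against 39.5% of all tested genes, and the highest of all 6 libraries in 43 members (46.7%), against 16.5%. The summed level of the 92 members was 2967, 2739 and 3884 FPKM in WT N and 3578, 3433 and 3724 FPKM in KO N. The sums overlap between the groups because of that library alone, and their means were 3197 ± 606 FPKM and 3578 ± 146 FPKM (SD, n = 3 each). These sums are not set to an equal total. All genes together summed to 305500, 302532 and 340717 FPKM in WT N and 308973, 305243 and 322485 FPKM in KO N. WT N replicate 3 was the highest there too. Relative to the mean over the 6 libraries, the members' median level was -0.18, -0.27 and 0.20 on the log2 scale in WT N and 0.06, 0.03 and 0.17 in KO N, while all tested genes lay between -0.11 and 0.10.

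**Figure D1:**
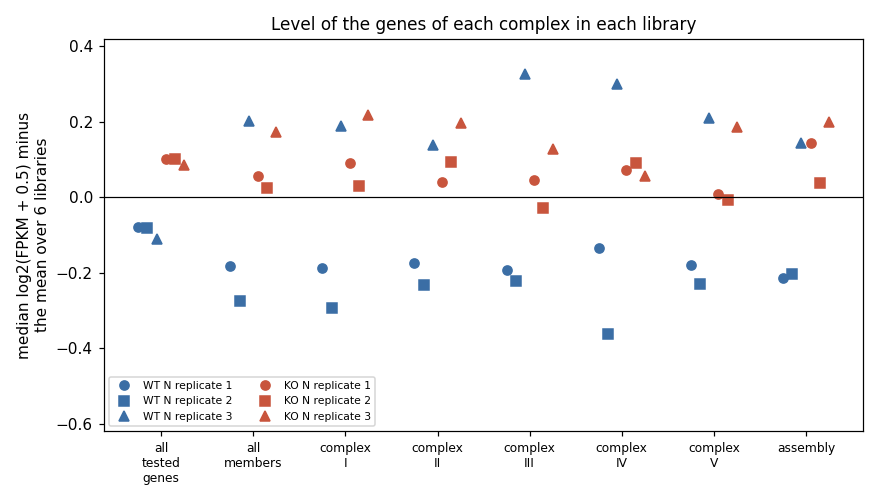
Median level of the genes of each complex in each library, as log2(FPKM + 0.5) minus the mean over the 6 libraries. WT N replicates 1 and 2 lie below all KO N libraries for every complex, and WT N replicate 3 lies at or above some of them.

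Transcript length moved with this deviation. Over all tested genes, WT N replicate 3 exceeded the mean of WT N replicates 1 and 2 by a median of 0.29 on the log2 scale where the longest annotated transcript was under 1000 nt, by 0.21 from 1000 nt up to 2000 nt and by 0.01 from there up to 4000 nt, and its median difference was -0.26 at 4000 nt or more. Members are short, with a median of 1170.5 nt for the longest transcript against 3001 nt for all tested genes. Their medians in the same 4 classes were 0.50 (40 members), 0.42 (29 members), 0.34 (18 members) and 0.49 (5 members), which is above all genes in each class. Whether the preparation of that library or the cells in it differed was not tested.

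**Figure D2:**
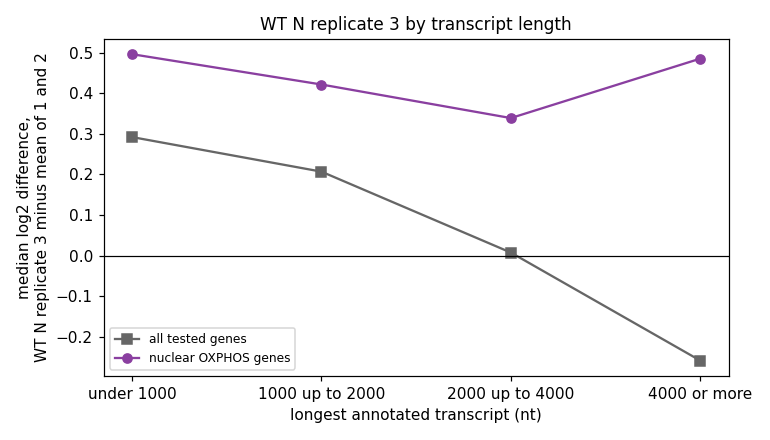
Median log2 difference of WT N replicate 3 from the mean of WT N replicates 1 and 2, by length of the longest annotated transcript in nt. The line of all tested genes falls from 0.29 to -0.26, and that of the nuclear OXPHOS genes stays between 0.34 and 0.50.

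Over all 6 libraries, few nuclear genes of oxidative phosphorylation differed between WT N and KO N, and without WT N replicate 3 many more were higher in KO N. With limma on log2(FPKM + 0.5) and Benjamini-Hochberg adjustment over all 13367 genes, 8 of 92 members (8.70%) rose in KO N and 0 fell, where 27.1% of all tested genes rose and 10.5% fell. At an unadjusted p under 0.05 there were 18 members (19.6%), all higher in KO N, where 34.2% of all tested genes were higher and 13.1% lower at that p. The 8 that rose were *Cox7a2l*, *Ndufaf7*, *Atp5s*, *Ndufb3*, *Atp5g2*, *Ndufa6*, *Sdhc* and *Sdha*, by between 1.31-fold and 2.27-fold. The members' median log2 fold change was 0.16 (quartiles 0.05 and 0.32), against 0.19 over all tested genes, and it was -0.047 after median-of-ratios scaling, which moved the median of all tested genes to 0.00. The median size of a change, whatever its direction, was 0.18 for the members and 0.34 for all tested genes on the log2 scale.

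The 95% interval of the change lay within 2-fold in either direction for 83 of 92 members and within 1.5-fold for 48. Over all 13367 tested genes, it did so for 9343 and 4584. Values of KO N lay above all values of WT N in 15 members and below them in 0, and such genes made up 37.5% and 14.4% of all tested genes. At the threshold the study set (fold change above 2 and unadjusted p under 0.05), 3 members passed upwards and 0 downwards, against 6.68% and 4.43% of all tested genes. The median log2 fold change was 0.20 for complex I, 0.25 for complex II, 0.11 for complex III, 0.17 for complex IV, 0.08 for complex V and 0.25 for the assembly factors. After median-of-ratios scaling the medians of complexes I, III, IV and V turned negative, at -0.0072, -0.10, -0.041 and -0.13, while those of complex II and the assembly factors were 0.037 and 0.054.

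**Figure D3:**
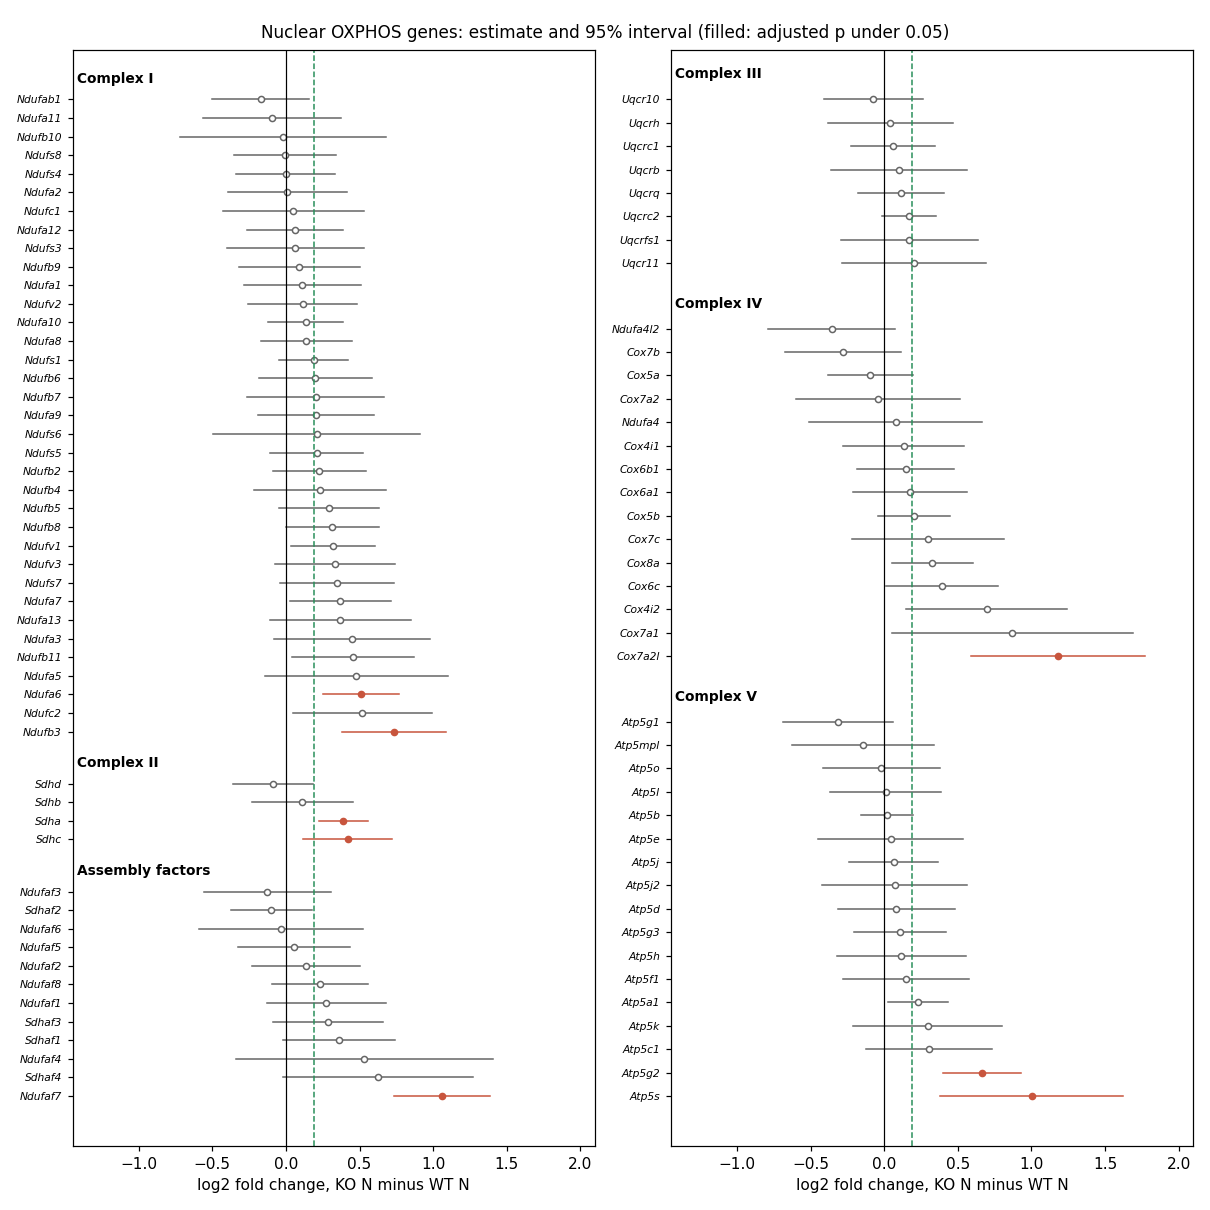
Log2 fold change of 91 of the 92 nuclear genes, KO N minus WT N (horizontal axis), with its 95% interval, by complex; filled symbols mark an adjusted p under 0.05 and the dashed line the median of all tested genes, 0.19. Most intervals cross 0, and the 8 filled symbols all lie to its right.

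Without WT N replicate 3, 41 of 92 members (44.6%) rose and 0 fell, against 31.6% and 12.8% of all tested genes, and the members' median log2 fold change was 0.31 against 0.17 over all tested genes. With a correction for GC content and transcript length in each library, 28 members (30.4%) rose and 1, *Ndufa4l2*, fell, against 36.8% and 12.1%. With median-of-ratios scaling, 4 members (4.35%) rose and 0 fell, against 16.1% and 16.6%. When the same scaling was combined with leaving out WT N replicate 3, 18 members (19.6%) rose and 2, *Atp5g1* and *Cox7b*, fell, against 19.4% and 20.2%. Leaving out replicate 3 of both groups gave 46 higher members and 0 lower, against 33.8% and 14.5%, and values rescaled to TPM gave 15 and 0, against 26.0% and 9.79%. The replicate number as a block gave 18 and 1, against 31.8% and 12.6%. All 8 members reported as higher were among those higher without WT N replicate 3 and among those higher with the correction. *Ndufb3*, *Cox7a2l*, *Atp5g2* and *Ndufaf7* were the 4 that remained with median-of-ratios scaling.

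**Figure D4:**
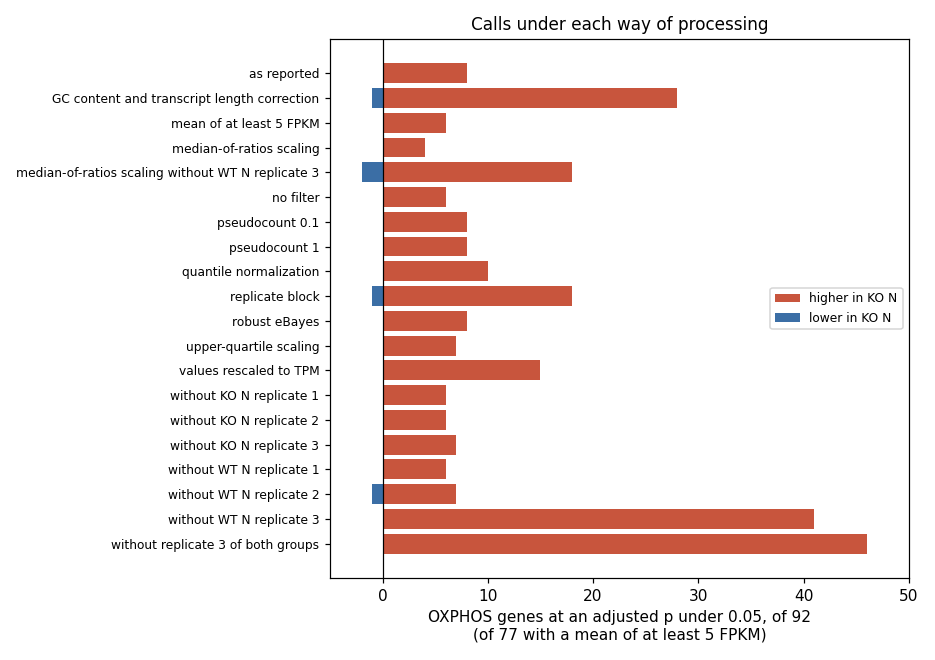
Number of nuclear OXPHOS genes higher (to the right) or lower (to the left) in KO N at an adjusted p under 0.05 under each way of processing. The count of higher genes runs from 4 with median-of-ratios scaling to 46 without replicate 3 of both groups.

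Complex I, NADH dehydrogenase, was represented by 7 core subunits and 29 accessory subunits. Its summed level was 800 to 1094 FPKM in WT N and 956 to 1049 FPKM in KO N. Among core subunits 0 of 7 passed limma's test (1 at an unadjusted p under 0.05), and the median log2 fold change was 0.11. *Ndufv1*, which holds the NADH and flavin site, read 10.3, 9.07 and 12.1 FPKM in WT N and 12.5, 12.7 and 14.0 FPKM in KO N. KO N was higher in every library, but the log2 fold change of 0.32 (SE 0.12) did not pass limma's test (adjusted p = 0.0784). *Ndufs7*, a core subunit with an iron-sulfur cluster, had 0.35, the largest log2 fold change of the core, and *Ndufs8*, another, -0.01, the smallest.

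Among the accessory subunits, *Ndufb3* and *Ndufa6* rose. *Ndufb3*, a subunit of the membrane arm, read 13.2, 13.6 and 19.0 FPKM in WT N and 27.2, 24.6 and 24.5 FPKM in KO N. All KO N values lay above all WT N values, and limma gave a log2 fold change of 0.73 (SE 0.15, adjusted p = 0.00874). *Ndufa6*, a subunit of the LYR family near the junction of the arms, read 10.5, 11.6 and 13.0 FPKM in WT N and 18.1, 16.7 and 15.5 FPKM in KO N, again without overlap (log2 fold change 0.51, SE 0.11, adjusted p = 0.0109). Both remained called whichever single library was left out, and *Ndufa6* did not pass after median-of-ratios scaling (adjusted p = 0.0853). *Ndufc2*, with the largest log2 fold change of the accessory subunits that did not pass, read 27.9, 28.2 and 45.2 FPKM in WT N and 43.4, 45.7 and 53.2 FPKM in KO N. WT N replicate 3 overlaps KO N, and the log2 fold change of 0.52 gave an adjusted p of 0.0822 with limma, or 0.00241 without that library.

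The 2 most abundant accessory subunits, *Ndufa2* and *Ndufa1*, had log2 fold changes of 0.01 and 0.11, and neither passed. *Ndufa2* read 87.0, 84.6 and 130 FPKM in WT N and 98.1, 94.2 and 105 FPKM in KO N, so that the highest and the lowest value were both in WT N. The smallest log2 fold changes were -0.17 for *Ndufab1*, the mitochondrial acyl carrier protein, and -0.09 for *Ndufa11*, a membrane subunit, neither past the test.

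Complex II, succinate dehydrogenase, is also an enzyme of the tricarboxylic acid cycle and has only nuclear subunits. Its catalytic flavoprotein gene and 1 of its membrane anchors rose, while the iron-sulfur subunit and the other anchor did not pass. *Sdha*, the flavoprotein that oxidises succinate, read 38.0, 36.9 and 38.1 FPKM in WT N and 49.0, 49.9 and 49.6 FPKM in KO N. The values within each group were close together and well apart between groups, with a log2 fold change of 0.39 (SE 0.07, adjusted p = 0.00508, limma). *Sdhc*, an anchor that binds haem and ubiquinone, read 21.1, 20.4 and 26.9 FPKM in WT N and 28.9, 29.5 and 33.1 FPKM in KO N. The groups do not overlap, and the log2 fold change was 0.42 (SE 0.13, adjusted p = 0.0388), but this call was kept in 1 of the 6 fits that each left out 1 library, the fit without WT N replicate 3.

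*Sdhb*, which carries the iron-sulfur clusters, read 38.3, 36.2 and 50.9 FPKM in WT N and 41.4, 43.7 and 49.3 FPKM in KO N (log2 fold change 0.11, SE 0.14). *Sdhd*, the other anchor, read 74.97, 71.5 and 90.2 FPKM in WT N and 71.8, 69.7 and 80.2 FPKM in KO N (log2 fold change -0.09, SE 0.11). In both, the highest value was that of WT N replicate 3. An annotated processed pseudogene, *Gm16125*, overlaps *Sdha* on the opposite strand, and neither *Sdha* nor *Sdhc* passed after median-of-ratios scaling, where their log2 fold changes were 0.18 and 0.21.

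Complex III, the cytochrome bc1 complex, showed no member past limma's test (0 also at an unadjusted p under 0.05), and its 8 log2 fold changes ran from -0.07 to 0.20. Its summed level was 331, 322 and 465 FPKM in WT N and 402, 375 and 395 FPKM in KO N. The first 2 WT N libraries lay below KO N and replicate 3 above it. *Uqcr10*, a small structural subunit and the most abundant, read 71.8, 63.1 and 92.6 FPKM in WT N and 73.5, 70.0 and 69.9 FPKM in KO N (log2 fold change -0.07, 95% interval -0.41 to 0.26). *Uqcr11*, another small subunit, had the largest log2 fold change, 0.20, *Uqcrfs1*, the Rieske iron-sulfur protein, had 0.17 and *Uqcrh*, the hinge protein, 0.04.

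Complex IV, cytochrome c oxidase, held the member with the largest log2 fold change, and its 2 most abundant members did not pass the test. *Cox7a2l*, a relative of the Cox7a subunits, read 49.5, 31.1 and 44.2 FPKM in WT N and 101, 67.7 and 119 FPKM in KO N. Its protein has been linked to the joining of complexes III and IV, which can depend on the mouse strain and was not measured here. The lowest KO N value lay above the highest WT N value, and limma gave a log2 fold change of 1.18 (SE 0.25, 95% interval 0.59 to 1.77, adjusted p = 0.0102), or 2.27-fold. The 2 most abundant members were *Cox6a1* and *Cox8a*, both structural subunits. *Cox6a1* read 189, 154 and 242 FPKM in WT N and 206, 212 and 232 FPKM in KO N (log2 fold change 0.17, SE 0.16). *Cox8a* read 187, 151 and 184 FPKM in WT N and 233, 223 and 198 FPKM in KO N, without overlap but with an adjusted p of 0.0655 (limma, log2 fold change 0.33).

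Several complex IV subunits come as a pair of genes, one used in most tissues and one known from muscle, lung or testis, and the most abundant form was the one used in most tissues in every pair. *Cox4i1*, *Cox6b1* and *Cox7a2* had means of 156, 131 and 64.0 FPKM in WT N and 168, 143 and 59.8 FPKM in KO N, and none passed the test. *Cox4i2*, the lung form of subunit 4, read 0.533, 0.179 and 0.422 FPKM in WT N and 0.828, 0.673 and 1.27 FPKM in KO N (log2 fold change 0.70, SE 0.23, adjusted p = 0.0515 with limma). *Cox7a1*, the muscle form, read 0.196, 0.127 and 0.999 FPKM in WT N and 1.00, 0.893 and 1.41 FPKM in KO N (log2 fold change 0.87, SE 0.34, adjusted p = 0.0895 with limma). Both changes missed the threshold at levels near the lower limit, where the pseudocount shrinks a fold change, and without WT N replicate 3 the adjusted p of *Cox7a1* was 0.00367 (limma).

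Below that limit, and so not tested, *Cox6b2* read 0.318, 0.242 and 0.187 FPKM in WT N and 0.672, 0.650 and 0.480 FPKM in KO N, and *Cox6a2* 0.0349 FPKM in 1 library of WT N, 0 in the other 2, and 0.309, 0.808 and 0.764 FPKM in KO N. *Cox8b*, *Cox8c*, *Cox7b2* and the second identifier of *Atp5o* were listed at 0 in all 6 libraries. Just inside the limit were *Cox4i2*, with a mean of 0.650 FPKM, and *Sdhaf3*, with 0.675 FPKM, and just outside it was *Cox6b2*, with 0.425 FPKM.

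The smallest log2 fold changes of complex IV were -0.36 for *Ndufa4l2* and -0.28 for *Cox7b*. *Ndufa4l2*, a relative of *Ndufa4* known as a target of hypoxia signalling, read 2.09, 1.47 and 2.64 FPKM in WT N and 1.57, 1.45 and 1.39 FPKM in KO N (SE 0.18, adjusted p = 0.168, limma). Its partner *Ndufa4*, a subunit of complex IV despite its name, averaged 37.3 ± 14.9 FPKM in WT N and 37.6 ± 1.41 FPKM in KO N (SD, n = 3 each). *Cox7b*, a structural subunit, read 48.2, 47.4 and 71.5 FPKM in WT N and 47.5, 44.1 and 43.2 FPKM in KO N, so WT N replicate 3 widened the difference of the means. Without that library the log2 fold change of *Cox7b* was -0.09 and that of *Ndufa4l2* -0.20. With median-of-ratios scaling as well, *Cox7b* was called lower without that library.

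Complex V, ATP synthase, had its beta subunit at nearly equal levels in the groups, while the alpha subunit was higher in every KO N library without passing the test. *Atp5b*, the catalytic beta subunit, read 130, 126 and 137 FPKM in WT N and 130, 132 and 135 FPKM in KO N, with a log2 fold change of 0.02 (95% interval -0.16 to 0.19). *Atp5a1*, the alpha subunit, read 128, 116 and 133 FPKM in WT N and 146, 142 and 155 FPKM in KO N, without overlap, and its log2 fold change of 0.23 (SE 0.09) gave an adjusted p of 0.0747 with limma. *Atp5s*, a coupling factor gene whose current symbol is *Dmac2l*, rose from 0.955, 0.541 and 1.66 FPKM in WT N to 2.41, 2.23 and 2.81 FPKM in KO N (log2 fold change 1.00, SE 0.26, adjusted p = 0.0237, limma). It stood far below the other complex V genes, and its call was kept without WT N replicate 2 and without WT N replicate 3, but not without any other single library. *Atp5mpl*, a small membrane subunit, stayed short of the threshold at a log2 fold change of -0.15.

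*Atp5g1*, *Atp5g2* and *Atp5g3* encode 3 precursors of the same mature protein, subunit c of the rotating ring, and 1 of the 3, *Atp5g2*, rose. *Atp5g2* read 28.7, 27.7 and 34.1 FPKM in WT N and 51.4, 49.2 and 43.7 FPKM in KO N, without overlap (log2 fold change 0.67, SE 0.11, adjusted p = 0.00401, limma). *Atp5g1* read 10.8, 10.6 and 15.2 FPKM in WT N and 8.69, 9.48 and 10.7 FPKM in KO N (log2 fold change -0.31, SE 0.16, adjusted p = 0.164, limma). *Atp5g3* was the most abundant of the 3, at 49.98, 48.9 and 64.0 FPKM in WT N and 54.7, 55.4 and 64.8 FPKM in KO N (log2 fold change 0.11, SE 0.13). As a share of the summed FPKM of the 3 genes, which does not depend on scaling between libraries, *Atp5g2* took 31.3% ± 1.03 in WT N and 41.5% ± 4.26 in KO N, *Atp5g1* 12.6% ± 0.75 and 8.29% ± 0.71, and *Atp5g3* 56.1% ± 0.29 and 50.2% ± 3.61 (SD, n = 3 each). For none of the 3 did the shares overlap between groups, and the exact two-sided permutation test gave p = 0.1 for each, the smallest that 3 against 3 libraries allow (adjusted over the 3 shares, 0.1), so a difference in shares could not have passed. The 3 shares add up to the whole and are not independent of each other. Fragments that match more than 1 of the 3 genes, or their pseudogenes, could have been divided among them in the deposited values.

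The sequences before the RefSeq start sites of these 3 genes, and of the 2 members with the largest changes, are shown because these members stood apart. The stretches are from GRCm38.p6, 5′ to 3′ on the strand of the gene, outside annotated exons except for that of *Atp5g2*. It is a site with 10 bases on each side, in which capitals mark the core motif of NRF1, a factor known for regulating nuclear genes of respiration. The site lies within the first exon of another annotated *Atp5g2* transcript. The stretch of *Cox7a2l* lies inside the annotated span of its gene, downstream of the outermost annotated start. The places of the stretches are chr11:96075671-96075731 (minus strand) for *Atp5g1*, chr15:102671071-102671098 (minus) for *Atp5g2*, chr2:73911327-73911426 (minus) for *Atp5g3*, chr17:83514334-83514433 (minus) for *Cox7a2l* and chr17:78937067-78937134 (plus) for *Ndufaf7*.
Atp5g1: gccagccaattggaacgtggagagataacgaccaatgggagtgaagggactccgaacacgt
Atp5g2: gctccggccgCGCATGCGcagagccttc
Atp5g3: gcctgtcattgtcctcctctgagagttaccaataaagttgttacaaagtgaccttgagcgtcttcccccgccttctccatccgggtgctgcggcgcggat
Cox7a2l: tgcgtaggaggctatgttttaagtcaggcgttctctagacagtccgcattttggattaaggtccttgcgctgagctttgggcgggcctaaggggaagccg
Ndufaf7: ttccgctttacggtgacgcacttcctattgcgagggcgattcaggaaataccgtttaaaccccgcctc

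Windows of 300 bases, from 250 before to 50 after the start, were given by RefSeq for 77 of the 92 members (82 windows). The NRF1 core CGCATGCG, searched on both strands, was in 11 of the 82 windows (13.4%), against 1.87% of all 32851 mouse windows. The YY1 core AAGATGGC was in 11 (13.4%), against 2.75%, and the ETS core CCGGAAGT, bound by GABP among others, in 5 (6.10%), against 3.89%. At least 1 of the 3 was in 25 windows (30.5%), against 8.07%. Of the members that rose and had a window, *Atp5g2* was the one that held any of them. All mouse windows cover 27025 genes, whether tested here or not, and are not matched to the members in expression or base content. A match shows that the letters are there and not that a factor binds.

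The assembly factors, which help to build complexes I and II without being part of them, stood at low levels, with a median of 3.22 FPKM. *Ndufaf7*, a methyltransferase that modifies a core subunit of complex I during assembly, read 1.26, 1.24 and 1.78 FPKM in WT N and 3.44, 3.401 and 3.65 FPKM in KO N. The groups were far apart, and its log2 fold change of 1.06 (SE 0.14, adjusted p = 0.00133, limma) was the most precise of the large changes. *Sdhaf4*, which assists the assembly of *Sdha*, read 3.88, 6.77 and 9.17 FPKM in WT N and 10.7, 9.81 and 9.31 FPKM in KO N. KO N was higher throughout, yet the spread within WT N left an adjusted p of 0.115 (limma, log2 fold change 0.62). *Ndufaf4* read 1.61, 1.63 and 1.87 FPKM in WT N, and 3.84 and 3.91 FPKM in KO N replicates 1 and 2 but 1.19 FPKM in KO N replicate 3, and passed the test when that library was left out.

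*Ndufaf8*, the most abundant assembly factor, had a log2 fold change of 0.23. The smallest values were -0.13 for *Ndufaf3* and -0.10 for *Sdhaf2*, and neither passed. *Ndufaf7* and *Cox7a2l*, the members with the largest changes on the log2 scale beside *Atp5s*, both lie on chromosome 17 within 4.58 Mb.

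**Figure D5:**
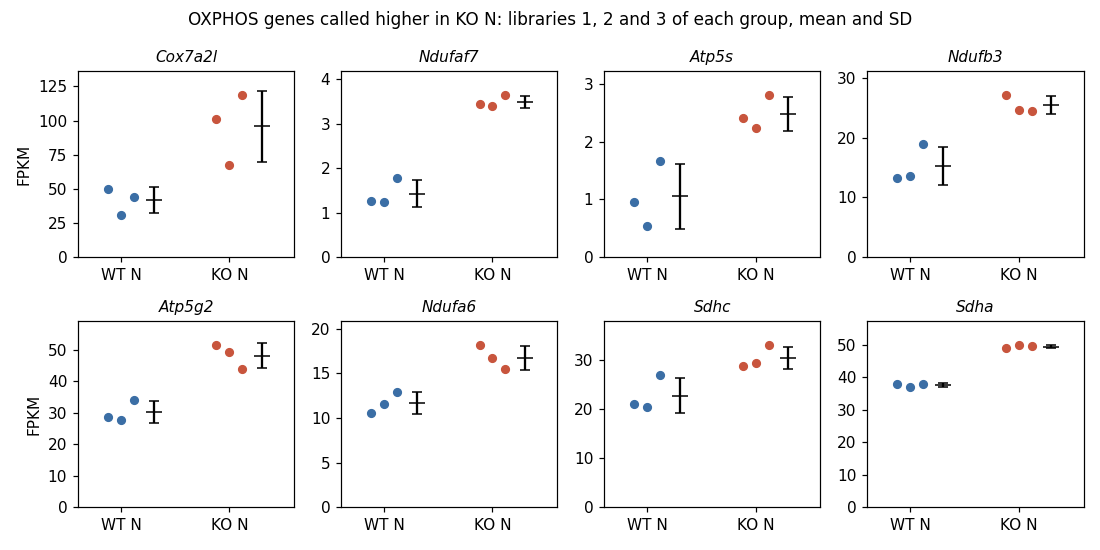
FPKM of the 8 members that rose in KO N, one point per library in the order 1, 2 and 3, with mean and SD beside them (n = 3); each vertical axis starts at 0. In all 8 panels the lowest KO N point lies above the highest WT N point.

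The 13 subunits encoded in the mitochondrial genome, which the rule on names leaves out, were compared next. All 13 had a positive log2 fold change, with a median of 0.50 against 0.19 over all tested genes, and 6 (46.2%) rose, against 27.1% of all tested genes: *mt-Co1*, *mt-Cytb*, *mt-Nd4*, *mt-Nd5*, *mt-Nd6* and *mt-Atp8*. Their summed level was 14846, 16063 and 14084 FPKM in WT N and 20338, 20495 and 19595 FPKM in KO N, without overlap. WT N replicate 3, the highest WT N library for the nuclear genes, had the lowest sum of the 6 libraries here, a rank that rests on *mt-Atp6* alone. In *mt-Atp6* that library read 271 FPKM, against 1266 and 1351 FPKM in the other 2 of WT N and 1730 to 1802 FPKM in KO N, so its log2 fold change of 1.18 had an SE of 0.59 and did not pass (adjusted p = 0.159, limma).

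Other nuclear genes of oxidative phosphorylation, mostly assembly factors, numbered 38, of which 37 were tested. Of these, 6 (16.2%) rose and 2 (5.41%) fell, against 27.1% and 10.5% of all tested genes, and the median log2 fold change was 0.16 against 0.19. The largest were 0.96 each for *Atpaf1*, an ATP synthase assembly factor (adjusted p = 0.000979, limma), and *Atpif1*, the inhibitor that stops ATP synthase from running backwards (adjusted p = 0.00283). *Atpif1* read 33.1, 34.0 and 47.6 FPKM in WT N and 70.9, 73.4 and 76.9 FPKM in KO N, without overlap. *Coa5*, a complex IV assembly factor, fell from 40.8, 41.9 and 35.1 FPKM to 24.4, 25.0 and 25.3 FPKM (log2 fold change -0.64, adjusted p = 0.0021, limma). *Coa7*, another, had -0.61 and did not pass (adjusted p = 0.143). The other gene that fell was *Cycs*, cytochrome c itself, which carries electrons from complex III to complex IV. It read 20.8, 20.95 and 26.2 FPKM in WT N and 13.9, 16.3 and 16.5 FPKM in KO N (log2 fold change -0.53, SE 0.12, adjusted p = 0.0157, limma).

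Of 19 genes of the tricarboxylic acid cycle and pyruvate entry, which supplies NADH and succinate, 5 (26.3%) rose and 0 fell, against 27.1% and 10.5% of all tested genes, and the median of their log2 fold changes was 0.20 against 0.19. At an unadjusted p under 0.05 there were 6 (limma), of which 1, *Mdh2*, was lower. *Suclg2*, a subunit of the GTP-forming succinyl-CoA synthetase, read 3.21, 3.57 and 3.25 FPKM in WT N and 6.79, 6.77 and 6.53 FPKM in KO N (log2 fold change 0.91, SE 0.09, adjusted p = 0.000399, limma). *Fh1*, fumarase, had 0.85 (adjusted p = 0.00366). These enzymes act just before and just after succinate dehydrogenase in the cycle. The smallest values were -0.27 for *Mdh2*, malate dehydrogenase, and -0.24 for *Ogdh*, of the 2-oxoglutarate dehydrogenase complex, neither past the test.

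Of 15 genes listed for electron transfer to ubiquinone, mitochondrial carriers and mitochondrial antioxidant enzymes, 5 (33.3%) rose and 2 (13.3%) fell, against 27.1% and 10.5% of all tested genes. *Etfb*, which carries electrons from fatty acid oxidation, read 14.7, 11.1 and 18.5 FPKM in WT N and 41.2, 40.04 and 46.7 FPKM in KO N (log2 fold change 1.52, SE 0.18, adjusted p = 0.000903, limma). *Slc25a4*, an exchanger of ADP and ATP, rose by 0.73 on the log2 scale. *Sod2*, the superoxide dismutase of the mitochondrial matrix and a gene known to respond to inflammatory signals, read 26.9, 26.3 and 31.9 FPKM in WT N and 6.98, 6.63 and 6.79 FPKM in KO N. Its log2 fold change was -1.98 (SE 0.10, adjusted p = 2.14e-05, limma), larger in size than that of any of the 92 members. *Gpd2*, which passes electrons from glycerol 3-phosphate to ubiquinone, fell by 0.78 on the log2 scale.

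Of the 15 factors known to drive mitochondrial biogenesis, 14 were tested, 1 (7.14%) rose and 1 fell, against 27.1% and 10.5% of all tested genes. *Pprc1*, a coactivator of the PGC-1 family, read 10.9, 5.94 and 6.34 FPKM in WT N and 3.90, 4.30 and 3.54 FPKM in KO N (log2 fold change -0.85, SE 0.22, adjusted p = 0.0233, limma), and *Gabpa*, a subunit of the ETS factor GABP, had 0.31 (adjusted p = 0.0208). *Gabpb1*, its partner, had -0.49 and did not pass. The largest log2 fold changes were 0.47 for *Tfb1m* and 0.41 for *Polrmt*, the mitochondrial RNA polymerase, neither past the test. *Ppargc1a*, the founding member of the PGC-1 family, was at or below 0.0335 FPKM in every library and was not tested.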

How the data were processed

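RNA-seq values of 6 BMDM libraries, 3 WT N and 3 KO N, were analysed. The authors deposited FPKM per Ensembl gene and library. The submitters' processing notes list fastp 0.17.1, HISAT2 2.1.0, DESeq2 1.18.1 and R 3.4.3, and the build, annotation and FPKM program are not given in the sources used here. The labels and the methods of the study name different RNA reagents, library kits and sequencers. Of 55335 identifiers, 55154 (99.7%) matched GENCODE M21 (GRCm38), the source of symbols, positions, transcript lengths and GC content. Genes that reached 0.5 FPKM on average were tested as log2(FPKM + 0.5), a scale that understates changes of low genes, with limma 3.58.1 in R 4.3.3 (lmFit, eBayes with trend, two-sided, no covariates, KO N minus WT N) and Benjamini-Hochberg adjustment over 13367 genes. The test was checked on data simulated gene by gene with the means and spread of these data. No deviation of a whole library was simulated, so the check does not cover that of WT N replicate 3. Counts are not part of the table, so DESeq2, which the study used, was not run. Relative depth came from genes under 0.2 FPKM, as the commonest ratio between 2 libraries, shared by 1.20% to 1.44% of such genes, and no counts were recovered.

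Members, gene lists and alternatives were chosen with earlier results of these data known. Named members were, per class, the 2 most abundant and those with the 2 largest and 2 smallest log2 fold changes, all *Sdh* subunits, isoform pairs, those past the study's threshold and those next to the limit, and the 2 largest and 2 smallest of the other lists. *Ndufa6*, *Ndufaf4*, *Cycs*, *Gabpa*, *mt-Atp6* and the other mitochondrially encoded genes were named after their values were seen. Single genes that the rule or a marker list would name but the text does not are not reported here. Promoter windows are from RefSeq (GRCm38.p6). Reads shared with processed pseudogenes, of which these families have many, could be divided in ways not known here. Python 3.11.15, pandas 2.3.3, scipy 1.17.1 and matplotlib 3.10.9 served for the rest.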

Additional observations from a re-analysis of the deposited data

How the results depend on the processing

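The median of the 92 members stayed positive under every alternative but median-of-ratios scaling, and 0 to 2 of them fell in each. That scaling gave 4 higher members, against 16.1% of all tested genes, and 0 past the threshold of the study (unadjusted p under 0.05 with a change above 2-fold). Its medians were -0.047 for the members, -0.0072 for complex I, 0.037 for complex II, -0.13 for complex V and 0.054 for the assembly factors. The members' median minus that of all tested genes changed sign between alternatives. It was -0.031 as reported, and ran from -0.14 without WT N replicate 2 to 0.13 without WT N replicate 3. The members called higher numbered 28 (1 lower) with GC content and transcript length correction, against 36.8% (12.1% lower) of all tested genes. They numbered 15 with values rescaled to TPM, against 26.0% of all tested genes. The replicate number as a block gave 18 higher and 1 lower (*Atp5g1*), against 31.8% and 12.6% of all tested genes. Same-numbered libraries of the groups correlated at 0.12, 0.04 and 0.26 in their deviations from the group mean, and differently numbered ones at -0.23 to 0.16. The 0.26 was that of replicate 3 of both groups, and each replicate 3 correlated negatively with the other numbers. Deviations from a group mean are not independent of each other. The labels do not say that the numbers mark pairs, and they were not taken as pairs. The next 2 alternatives were chosen after seeing the data. Leaving out replicate 3 of both groups gave 46 higher members (against 33.8% of all tested genes) and 5 past the study's threshold. Median-of-ratios scaling without WT N replicate 3 gave 18 higher and 2 lower, against 19.4% and 20.2% of all tested genes.

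Past the study's threshold were 5 members with a pseudocount of 0.1 or with TPM, and 1 with a pseudocount of 1, with a mean of at least 5 FPKM, with quantile normalization or with upper-quartile scaling. The share of all tested genes past this threshold was counted only in the reported fit, at 6.68% upwards and 4.43% downwards. With a mean of at least 5 FPKM, all tested genes called in either direction numbered 2739, against 5027, and the assembly factors' median was 0.43; it was 0.080 with quantile normalization. Leaving out each library in turn gave 6 to 41 higher members, the most without WT N replicate 3, 0 to 1 lower (*Ndufa4l2*, without WT N replicate 2) and 0 to 4 past the study's threshold, and members' medians of 0.05 to 0.31. In the same fits, 2442 to 4228 of the 13367 tested genes were higher and 1047 to 1717 were lower. Complex medians ran from 0.08 to 0.35 (I), 0.18 to 0.33 (II), 0.02 to 0.24 (III), 0.05 to 0.34 (IV), -0.01 to 0.23 (V) and 0.12 to 0.37 (assembly factors). *Ndufb3*, *Cox7a2l* and *Atp5g2* were called in every fit. *Ndufaf7* was called in every fit that tested it, as the limit of 5 FPKM left it out. The cause of these shifts was not tested, and FPKM without counts gives no error for low genes beyond the spread of 3 libraries.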

Other observations

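Between *Ndufaf7* and *Cox7a2l* on chromosome 17, a stretch chosen after both values were seen, 6 of the 22 other tested genes (27.3%) rose in KO N and 1 fell, against 26.0% and 10.8% of the 701 tested genes of the chromosome. The median log2 fold change of the 22 was 0.32, against 0.17 for the chromosome and 0.19 for all tested genes. This difference was not tested.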
